A study of Mus musculus with 28 samples.

Results

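The genes of the 4 classical reprogramming factors, Pou5f1 (which encodes Oct4), Sox2, Klf4 and Myc, were followed through reprogramming by the open chromatin around their own, endogenous loci. The measurement was ATAC-seq, an assay that tags open DNA with a transposase before sequencing, and the material was 1 list of peaks for each of 28 libraries. Members were taken by position alone. Every peak overlapping chr17:35620000-35670000 (Pou5f1), chr3:34540000-34670000 (Sox2), chr4:55470000-55600000 (Klf4) or chr15:61750000-61900000 (Myc) in the mouse build mm9 was kept, and overlapping peaks of all libraries were merged into regions. The 4 windows held 58 merged regions of 172177 in the genome, and 38 of these were called in at least 2 libraries, of 109954 in the genome.

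All 28 libraries came from mouse embryonic fibroblasts (MEFs) of strain V6.5 129XBI/6 taken at embryonic day 12.5, and per the series text all lacked Tet2 and carried a doxycycline-inducible OKSM cassette (Oct4, Klf4, Sox2 and Myc) with its rtTA activator. The 7 groups of 4 libraries each were untreated control MEFs (day 0), and cells at day 5 and day 10 of reprogramming that had received a retroviral pMXs vector, either empty, with wild-type Tet2 (Tet2-WT) or with Tet2-E, named as a stalling mutant. Reprogramming cells were grown on Mito-C-treated MEF feeder cells in 2i/LIF medium with 2 µg/mL doxycycline and were sorted as SSEA1-RFP, SSEA1 being a surface marker of cells on the way to pluripotency. For the MEFs the isolation label is None, so the MEFs differ from the other groups in sorting, feeders and medium as well as in doxycycline, and these cannot be told apart. Whether they also differ in virus is not certain: the sample labels, followed here, call the MEFs untreated, while the series text can be read as if day 0 cells were transduced too. The control MEFs carry the same cassette and the same Tet2 deletion as the treated cells, and there was no group with its own Tet2. Nothing says that the 4 replicates of a group were separate cultures, so each p-value reflects spread among libraries that may be only technical. Transcripts were not measured, so the identity of the cells was not checked by marker genes.

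As background, Oct4 and Sox2 are transcription factors that bind DNA side by side and hold up the pluripotent state, and both genes are silent in fibroblasts. Klf4, a zinc finger factor, and Myc, a growth-promoting factor that binds E-boxes, are active in fibroblasts too. Pou5f1 has a proximal and a distal enhancer, both upstream of the gene. In embryonic stem cells Sox2 is driven by a cluster of enhancers far downstream, known as the Sox2 control region. Klf4 has stem cell enhancers downstream of the gene, and Myc has enhancers spread over a wide stretch on both sides. When reprogramming succeeds, the endogenous Pou5f1 and Sox2 loci switch on and take over from the cassette.

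The promoters are shown because the gene starts differed in whether any library called a peak there, and because they differ in sequence. The 250 bases upstream of the start were taken from RefSeq (GRCm38.p6) and are written 5′ to 3′ on the gene's strand. Capitals mark matches on either strand to the GC box GGGCGG, the CCAAT box CCAAT, the octamer core ATGCAAA and the E-box CACGTG, and GC boxes that overlap are joined. They come from chr17:35505782-35506031 (plus strand) for Pou5f1, chr3:34649745-34649994 (plus strand) for Sox2 and chr4:55532476-55532725 (minus strand) for Klf4, all in GRCm38.p6 and not in the build of the peaks.
Pou5f1: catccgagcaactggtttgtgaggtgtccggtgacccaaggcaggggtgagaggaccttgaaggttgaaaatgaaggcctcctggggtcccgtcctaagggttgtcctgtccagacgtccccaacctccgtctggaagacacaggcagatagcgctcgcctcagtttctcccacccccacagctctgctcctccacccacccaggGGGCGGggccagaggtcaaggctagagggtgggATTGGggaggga
Sox2: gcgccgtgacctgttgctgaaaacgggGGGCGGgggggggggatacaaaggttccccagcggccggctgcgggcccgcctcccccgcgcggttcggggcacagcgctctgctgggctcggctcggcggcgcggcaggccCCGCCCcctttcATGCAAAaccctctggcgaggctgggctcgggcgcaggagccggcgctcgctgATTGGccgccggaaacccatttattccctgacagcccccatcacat
Klf4: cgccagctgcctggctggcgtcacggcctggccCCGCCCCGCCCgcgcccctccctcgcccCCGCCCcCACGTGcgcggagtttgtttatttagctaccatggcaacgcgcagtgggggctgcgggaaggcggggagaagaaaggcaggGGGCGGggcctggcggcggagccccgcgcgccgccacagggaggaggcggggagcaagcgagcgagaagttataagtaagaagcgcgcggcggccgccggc
The Pou5f1 promoter held 62% G and C and 8 CpG sites, against medians of 52.4% and 6 CpG over the 32851 promoters of the same length in RefSeq. Sox2 held 72% and 27 CpG, and Klf4 held 74% and 32 CpG. GC box matches numbered 1 in Pou5f1, 2 in Sox2 and 4 in Klf4, and 32.7% of all promoters hold at least 1. Pou5f1 and Sox2 each held 1 CCAAT match, found in 33.8% of promoters. Sox2 alone of the 3 held the octamer core, the letters Oct4 and its relatives bind, which 4.12% of promoters hold. Klf4 alone held the E-box, which 6.02% hold. A match is a run of letters and not a measured binding site.

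The lists gave 27918 to 72332 peaks per library. Each peak has the authors' fold, the ratio of the number of fragments piled up at its summit plus 1 to the local background plus 1, and the commonest background of a library served as its relative depth. That background was 0.394 to 0.66 in MEFs, 0.746 to 1.04 at day 5 and 0.361 to 0.768 at day 10, so day 5 libraries were deeper than MEFs while MEF and day 10 libraries overlapped. At those backgrounds the lowest pileup that was called was 5 to 7 fragments. The fold belongs to a peak within its own list and describes how it stood out there. Groups were tested only by how many libraries called a region, and folds were not tested between groups. A region that was not called may still be open at a level below that limit. Distances are from a gene start known to the nearest kb, and exons and introns were not determined, because no mm9 annotation was used here.

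Of the 38 regions called in at least 2 libraries, 14 were called in no MEF library and 6 in MEFs only. All 28 libraries called 2 of them, as they did 7.04% of such regions in the genome. No genome share was taken for the 14 and the 6, so these counts describe the windows only. The Pou5f1 window held 6 of the 38, Sox2 8, Klf4 11 and Myc 13. A further 20 regions were called in a single library each and were not tested. Of the 38, 10 passed an adjusted p of 0.05 in at least 1 comparison. Genome shares are given below for each comparison and were not taken for this count.

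**Figure D1:**
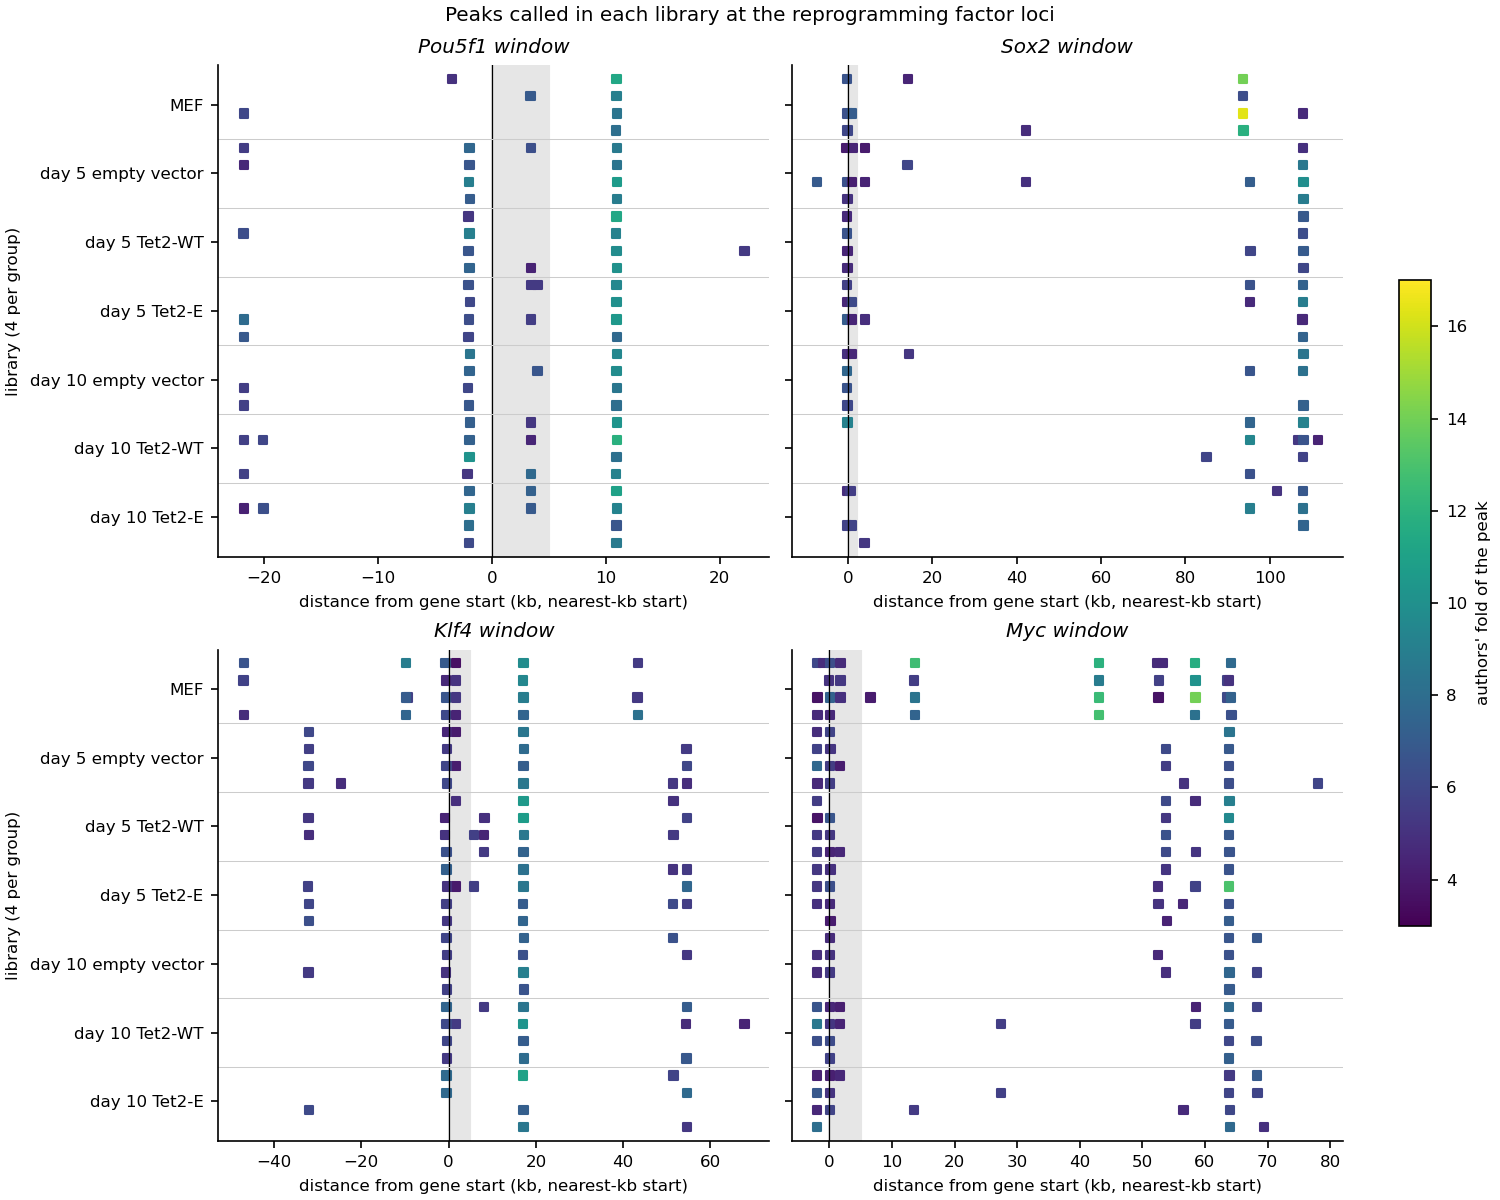
Every peak in the 4 windows, by distance from the gene start in kb (x axis, positive downstream along the gene) and by library (y axis, 4 rows per group); colour is the authors' fold and grey is the gene body. A column 2 kb upstream of Pou5f1 is empty in the 4 MEF rows and filled in the 24 others, while columns 94 kb downstream of Sox2 and 43 kb downstream of Myc are filled in the MEF rows only.

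Against MEFs, 2 of 34 member regions tested (5.88%) were called more often at day 5 and 6 (17.6%) less often, by Fisher's exact test on 4 against 12 libraries, 2-sided, with Benjamini-Hochberg adjustment over all 99090 regions tested. The same test over the genome called 9.81% of regions more often and 16.1% less often, 25.9% in all. At day 10, 1 of 30 (3.33%) was called more often and 8 (26.7%) less often, against 5.66% and 22.6% (28.2% in all) over the 89226 regions tested. The shares at the 4 loci were near the genome's in both directions. The counts rest on few MEF libraries: without MEF replicate 1 or without MEF replicate 4, 4 regions passed at day 5 (1 more often and 3 less often) and 5 at day 10 (1 and 4). Both comparisons use the same 4 MEF libraries, so they are not independent of each other. The median difference in the share of calling libraries was 0 points at day 5 and -8.33 points at day 10 for the members, as it was over all regions tested. The smallest adjusted p that 4 against 12 libraries could give was 0.00449 at day 5 and 0.00374 at day 10.

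At Pou5f1, 1 region went from no call in any MEF library to a call in all 24 reprogramming libraries. It is chr17:35640776-35641265, about 2 kb upstream of the gene start, on the side where the proximal and distal enhancers of the gene are known to lie. At day 5 the authors' fold was 7.64, 6.72, 8.91 and 7.07 with the empty vector, 5.23, 9.0, 6.73 and 7.44 with Tet2-WT, and 6.5, 6.06, 6.33 and 5.85 with Tet2-E. At day 10 it was 8.42, 7.46, 5.97 and 6.81 with the empty vector, 7.16, 7.31, 10.2 and 5.23 with Tet2-WT, and 7.57, 9.0, 8.03 and 6.14 with Tet2-E. All 24 libraries thus stood at or above 5.23, and no MEF library had a peak there. The difference from MEFs passed at day 5 (adjusted p = 0.00449, Fisher's exact test) and at day 10 (adjusted p = 0.00374). The backgrounds were 0.394 to 0.66 in the MEF libraries, 0.746 to 1.04 at day 5 and 0.361 to 0.768 at day 10. Every day 5 library was thus deeper than every MEF library, while day 10 overlapped with MEFs. The part of depth was not tested. The pattern of 0 MEF, 12 day 5 and 12 day 10 calls was shared by 1992 regions in the genome, 1.81% of the 109954.

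The summits of this region lay within 148 bp of each other, with a pileup of 12 to 22 fragments at day 5 and 8 to 23 at day 10. In its own list the peak was of middling rank, with a median position 37.6% from the top. The highest-fold peak of each library was narrower than the merged region of 490 bp, with medians of 282 bp at day 5 and 225.5 bp at day 10. Where a call needed cover of at least 50% of the region, 9 day 5 and 6 day 10 libraries called it, and the adjusted p was 0.0776 and 0.385. The call held without any single MEF library, with adjusted p of 0.0139 to 0.0158 at day 5 and 0.0112 to 0.013 at day 10.

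**Figure D2:**
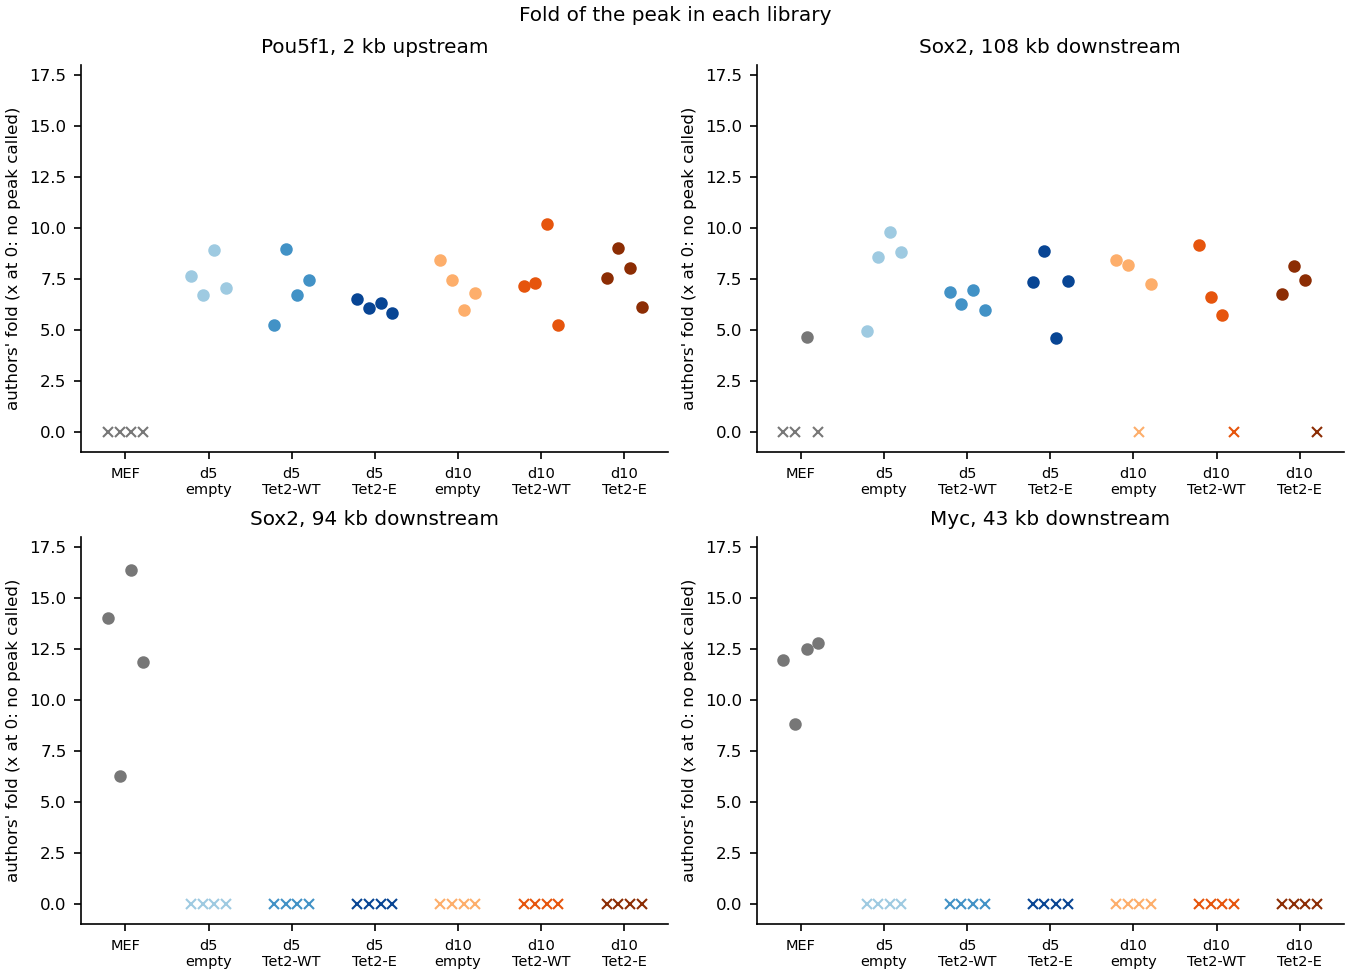
The authors' fold of the peak (y axis) in each library by group (x axis; points are libraries, and a cross at 0 marks a library with no peak) at 4 regions. The upstream Pou5f1 region has points in the 24 day 5 and day 10 libraries only, from 5.23 to 10.2, the Sox2 region 108 kb downstream in 21 of these and 1 MEF library, and the Sox2 region 94 kb and the Myc region 43 kb downstream have points in MEFs only.

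The Pou5f1 start itself was called in no library. No peak of any of the 28 libraries lay in the 5061 bp between the upstream region and the next region, at chr17:35646327-35646541 inside the gene. The other 3 genes had peaks at or next to their starts in both MEF and reprogramming libraries, as given below, though for Sox2 the MEF calls depended on list length. About 11 kb downstream of the Pou5f1 start, chr17:35653699-35654217 was called in all 28 libraries, as were 7.04% of regions in the genome. Its fold was 11.4, 9.03, 8.42 and 8.07 in MEFs, 7.73 to 11.4 at day 5 (median 9.62) and 6.73 to 11.9 at day 10 (median 9.24). The next genes on that side in RefSeq are Tcf19 and Cchcr1, and which of them the region belongs to was not determined. A weaker region about 22 kb upstream, chr17:35621108-35621281, was called in 1 MEF, 5 day 5 and 5 day 10 libraries and differed at neither day (adjusted p = 1, Fisher's exact test).

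At Sox2, 2 far downstream regions changed in opposite directions. The first, chr3:34656697-34657112 about 108 kb downstream of the start, lies where the Sox2 control region is known to be. It was called in 1 MEF library, in all 12 day 5 libraries and in 9 day 10 libraries, 3 for each vector. The fold at day 5 was 4.93, 8.59, 9.84 and 8.85 with the empty vector, 6.87, 6.28, 6.99 and 5.96 with Tet2-WT, and 7.36, 8.86, 4.61 and 7.41 with Tet2-E. In the 9 day 10 libraries it was 5.74 to 9.16 (median 7.46), and in the 1 MEF library, replicate 3, it was 4.66 on 6 fragments. The folds of the groups thus overlap, and they were not tested between groups.

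The gain at day 5 passed (adjusted p = 0.0311, Fisher's exact test) and the same difference at day 10 did not (adjusted p = 0.242), while day 5 and day 10 were not shown to differ from each other (adjusted p = 0.828). The day 10 libraries without a call, empty vector replicate 3, Tet2-WT replicate 4 and Tet2-E replicate 4, had backgrounds of 0.482, 0.395 and 0.361. All day 5 libraries, at 0.746 to 1.04, were deeper than the MEF libraries, at 0.394 to 0.66. The part of depth was not tested. The call at day 5 rests on few MEF libraries: without replicate 1, 2 or 4 of the MEFs its adjusted p was 0.0925, 0.0835 and 0.087, and with lists cut to equal length, where 0 MEF, 8 day 5 and 9 day 10 libraries called the region, it was 0.19. With calls that needed cover of at least 50% of the region, 1 day 5 library was left and no MEF or day 10 library.

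The second Sox2 region, chr3:34642532-34642921 about 94 kb downstream, was called in MEFs only. Its fold was 14, 6.26, 16.4 and 11.9 in the 4 MEF libraries, and no day 5 or day 10 library called it. The loss passed at day 5 (adjusted p = 0.00449, Fisher's exact test) and day 10 (adjusted p = 0.00374), and held without any single MEF library (adjusted p of 0.0139 to 0.0158 at day 5 and 0.0112 to 0.013 at day 10). It was a strong peak in its own lists, with a median position 7.19% from the top. The pattern of 4 MEF, 0 day 5 and 0 day 10 calls was shared by 5.80% of regions in the genome. Only 1237 bp further on, chr3:34644159-34644450 was called in no MEF library and in 4 day 5 and 5 day 10 libraries, and these differences did not pass (adjusted p = 0.767 and 0.427, Fisher's exact test). Its fold was 4.69 to 7.10 at day 5 and 6.45 to 9.45 at day 10.

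The Sox2 start was called in all groups. The region chr3:34548604-34549015 was called in 3 MEF, 9 day 5 and 7 day 10 libraries (adjusted p = 1 for each day against MEFs, Fisher's exact test). Its fold was 6.63, 6.46 and 5.99 in MEFs, 4.52 to 7.08 at day 5 (median 5.03) and 4.81 to 9.15 at day 10 (median 6.06). With lists of equal length 0 MEF, 4 day 5 and 5 day 10 libraries called it. With cover of at least 50% of the region these counts were 2, 1 and 0. No difference from MEFs passed under either. By vector, the start was called in 2 empty vector, 4 Tet2-WT and 3 Tet2-E libraries at day 5, and in 4, 1 and 2 at day 10. No vector held the highest count at both days. The whole Sox2 gene lies inside Sox2ot, a long non-coding transcript, so a peak there cannot be assigned to Sox2 alone.

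At Klf4, the regions that passed were all losses. Of its 11 regions called in at least 2 libraries, 3 were called in MEFs only and 5 in no MEF library. Regions at chr4:55501508-55501802 (43 kb downstream), chr4:55554601-55554866 (10 kb upstream) and chr4:55591773-55592096 (47 kb upstream) were each called in 3 of 4 MEF libraries and in none of the 24 others. The fold was 5.42, 5.33 and 8.16 at the first, in MEF replicates 1, 3 and 4. It was 8.91, 7.03 and 7.55 at the second, in the same replicates. At the third it was 6.63, 5.74 and 4.80, in replicates 1, 2 and 4. Each passed at day 5 (adjusted p = 0.0311, Fisher's exact test) and day 10 (adjusted p = 0.0276). These calls were fragile: leaving out any 1 of the 3 MEF libraries that called the region ended them, with adjusted p of 0.0835 to 0.0925 at day 5 and 0.0742 to 0.0835 at day 10. That pattern of calls was shared by 5379 regions in the genome. With lists cut to equal length, 1, 2 and 0 MEF libraries called them in the order given, and with cover of at least 50% the third was left with 1 MEF library.

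A Klf4 region inside the gene, chr4:55543175-55543451, was called in 4 MEF, 4 day 5 and 1 day 10 libraries. Its fold was 3.58, 5.04, 5.29 and 4.38 in MEFs, 3.96 to 4.87 at day 5 and 5.39 in the 1 day 10 library, Tet2-WT replicate 2. The loss passed at day 10 (adjusted p = 0.0156, Fisher's exact test) and not at day 5 (adjusted p = 0.183). These were among the weakest peaks in their lists, with a median position 97.2% from the top. Once lists were cut to equal length, 0 MEF, 1 day 5 and 1 day 10 library called the region. No loss was then left to see, and it could not be tested against MEFs. With only peaks of -log10 q of 5 or more the adjusted p at day 10 was 0.273, and with calls that needed cover of at least 50% of the region it was 0.087.

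The Klf4 start and a downstream region kept their peaks. The start, chr4:55545149-55546002, was called in 4 MEF, 11 day 5 and 10 day 10 libraries (adjusted p = 1 at both days, Fisher's exact test), and 2 of the 3 libraries without a call were day 10 Tet2-E. Its fold was 6.93, 4.63, 6.69 and 6.10 in MEFs, 4.38 to 7.21 at day 5 (median 5.39) and 5.07 to 7.80 at day 10 (median 5.89). The highest-fold peak of each library there had a median width of 591.5 bp in MEFs, 289 bp at day 5 and 254.5 bp at day 10. Where a library held more than 1 peak in the region, the others were left out of this width. Over whole lists the median peak width also fell in that order. It was 185 to 209 bp in MEFs, 144 to 186 bp at day 5 and 135 to 169 bp at day 10. That fall was smaller than at this start, and its part here was not tested.

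About 17 kb downstream, on the side of the stem cell enhancers, chr4:55527581-55528126 was called in 27 of 28 libraries, all but day 10 Tet2-E replicate 2. Its fold was 9.73, 9.45, 8.86 and 7.45 in MEFs, 7.02 to 10.7 at day 5 (median 8.35) and 6.49 to 11.1 at day 10 (median 7.90), and the groups overlap. It was already open in MEFs. Further downstream, chr4:55490222-55490652 at 55 kb was called in no MEF library, 7 day 5 and 6 day 10 libraries, and did not pass (adjusted p = 0.198 and 0.427, Fisher's exact test). Its fold was 4.83 to 7.62 at day 5 and 4.73 to 7.79 at day 10.

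At Myc, strong MEF regions on the downstream side were lost. The region chr15:61859901-61860271, about 43 kb downstream, had folds of 12, 8.83, 12.5 and 12.8 in MEFs and no call in the 24 other libraries. It passed at day 5 (adjusted p = 0.00449, Fisher's exact test) and day 10 (adjusted p = 0.00374), and in all 4 fits without a MEF library at each day (highest adjusted p 0.0158 and 0.013). Its median position was 9.28% from the top of the MEF lists. Closer to the gene, chr15:61830439-61830841 at 14 kb had folds of 12.7, 5.57, 8.36 and 7.48 in MEFs, and 1 later library, day 10 Tet2-E replicate 3, called it with a fold of 5.46 on 7 fragments. Its loss passed in Fisher's exact test at day 5 (adjusted p = 0.00449) and day 10 (adjusted p = 0.0156), but with calls that needed cover of at least 50% of the region the adjusted p was 0.124 and 0.098, and with lists of equal length it was 0.0938 at day 10.

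The Myc region chr15:61875315-61875662 at 58 kb was called in all MEF libraries and still in 5 later ones. Its fold was 11.7, 10.1, 14 and 8.23 in MEFs. At day 5 it was called with Tet2-WT in replicates 1 and 4 (4.75 and 5.14) and with Tet2-E in replicate 2 (5.76), and at day 10 with Tet2-WT in replicates 1 and 2 (4.33 and 5.53). All 5 later peaks were below the 4 MEF peaks in fold, which belongs to separate lists and was not tested between groups. No empty vector library called the region. The loss of calls passed at day 10 (adjusted p = 0.0292, Fisher's exact test) and not at day 5 (adjusted p = 0.0678). Leaving out any MEF library ended the day 10 call (adjusted p of 0.0742 to 0.0835). With lists of equal length 4 MEF and no later libraries called it, and the adjusted p was 0.004 at both days.

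The Myc start was called in MEFs and at both days. The region chr15:61816537-61817235 was called in 4 MEF, 11 day 5 and 10 day 10 libraries, and chr15:61814894-61815166 about 2 kb upstream in 3, 11 and 9. At the start the fold was 6.31, 5.07, 7.34 and 4.61 in MEFs, 4.05 to 6.68 at day 5 (median 5.27) and 4.23 to 6.22 at day 10 (median 5.13). Neither region passed at either day (lowest adjusted p = 0.759, Fisher's exact test). With calls that needed cover of at least 50% of the region, however, the start was called in 3 MEF libraries and in no day 5 or day 10 library, and it passed as a loss at day 5 (adjusted p = 0.0337, Fisher's exact test) and day 10 (adjusted p = 0.0265). The merged start region is 699 bp long. The highest-fold peak of each library there had a median width of 213 bp in MEFs, 157 bp at day 5 and 168 bp at day 10. Cover summed all peaks of a library in the region, so these widths are not the covered length.

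Far downstream of Myc, chr15:61880735-61881360 at 64 kb was called in all 28 libraries. The fold there was 7.80, 5.04, 7.34 and 6.45 in MEFs, 6.33 to 13 at day 5 (median 6.84) and 5.38 to 7.79 at day 10 (median 6.85). Only day 5 Tet2-E replicate 2, at 13, stood above 9.57. With lists of equal length it was called in 1 MEF, 11 day 5 and 11 day 10 libraries, and with calls that needed cover of at least 50% of its 626 bp in 0, 2 and 0. The next gene on this side is Pvt1, a long non-coding RNA gene.

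**Figure D3:**
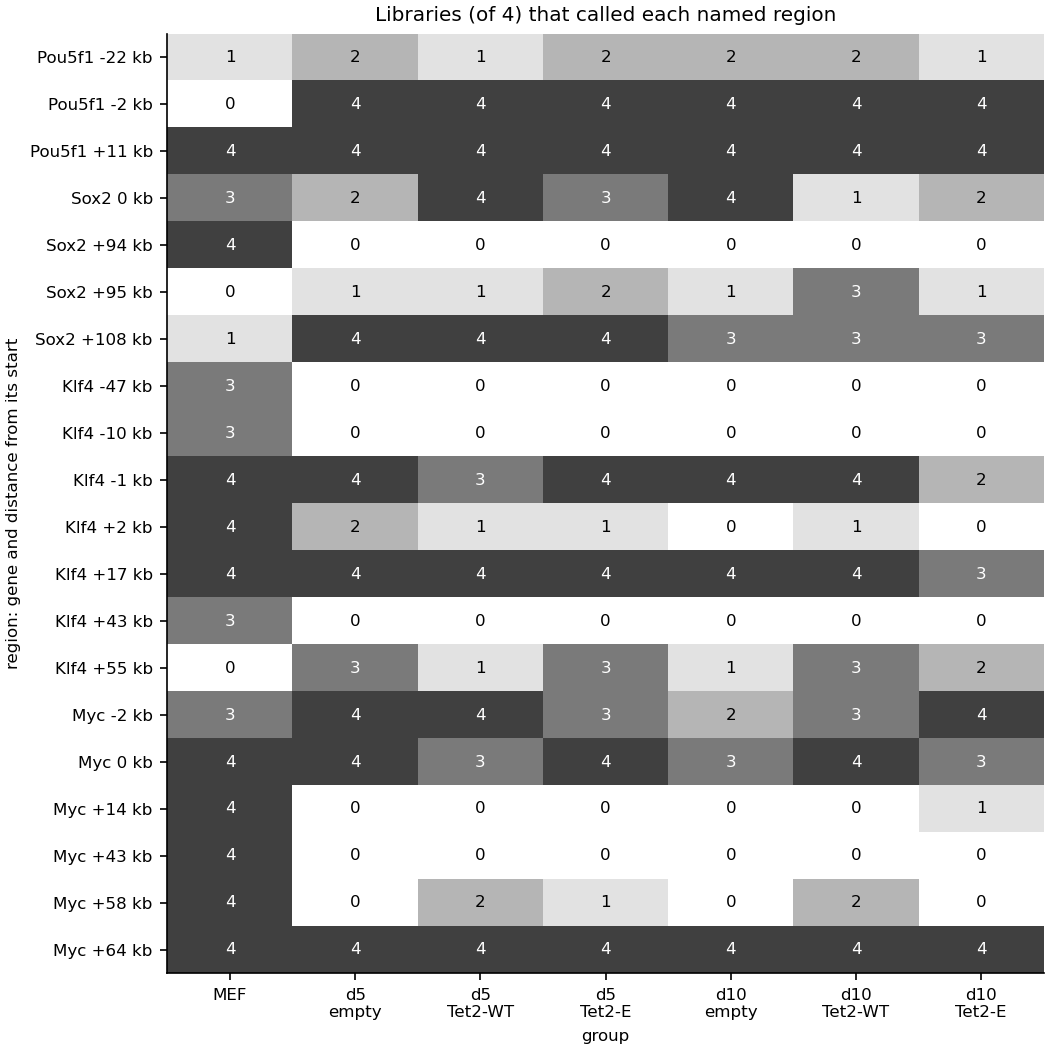
Number of the 4 libraries of each group (columns) that called each of the 20 named regions (rows, by gene and distance from its start); darker is more libraries. The upstream Pou5f1 row reads 0 in MEFs and 4 in the 6 other groups, and the rows Sox2 +94 kb and Myc +43 kb read 4 in MEFs and 0 elsewhere.

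Peaks over the gene bodies need care, because reads of the OKSM cassette would map to the exons of the 4 genes. In the Pou5f1 body, chr17:35646327-35646541 was called in 1 MEF, 4 day 5 and 5 day 10 libraries and a neighbour in 1 day 5 and 1 day 10 library. In the Sox2 body, chr3:34549713-34550121 was called in 1, 4 and 2 libraries, and in the Myc body chr15:61818604-61818850 was called in 3, 2 and 3. In no reprogramming group did all 4 libraries call any of these regions, or the Klf4 region 2 kb into the gene. The regions at the Sox2, Klf4 and Myc starts also reach the gene or come within the kb to which the start is known. All 4 libraries called the Sox2 start in 2 reprogramming groups and the Myc start in 3. They called the Klf4 start with the empty vector at both days, with Tet2-E at day 5 and with Tet2-WT at day 10. Whether these peaks come from the endogenous gene or from the cassette cannot be told apart in peak lists. The 10 regions that passed lay outside the gene bodies with the exception of the Klf4 region 2 kb into the gene.

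No member region passed between day 5 and day 10. With vector as a stratum in an exact conditional test, 0 of 29 member regions passed, where 0.144% of 83195 regions in the genome were called more often and 1.00% less often at day 10 (1.15% in all). That background of 955 regions was itself unstable: it was 1263 to 1948 when a single library was left out (1948 without empty vector replicate 1 of day 5), 256 with lists of equal length (132 more often and 124 less often) and 0 when any 1 replicate number was left out of every group. At an unadjusted p under 0.05 there were 3 member regions, named here after their values were seen. The first, chr4:55576882-55577264 about 32 kb upstream of Klf4, was called in no MEF, 9 day 5 and 2 day 10 libraries (p = 0.0112, adjusted p = 0.208, exact). Its difference between MEFs and day 5 did not pass either (adjusted p = 0.0678, Fisher's exact test). The second, chr15:61870685-61870960 about 54 kb downstream of Myc, was called in no MEF, 8 day 5 and 1 day 10 library (p = 0.0112, adjusted p = 0.208, exact). The third, chr15:61885208-61885438 about 68 kb downstream of Myc, was called in no MEF, no day 5 and 6 day 10 libraries, 2 for each vector (p = 0.0197, adjusted p = 0.262, exact). Its fold was 5.75 to 6.98 in those 6 libraries. The first of these had folds of 4.84 to 6.35 at day 5 and the second 4.33 to 6.54. Backgrounds were 0.746 to 1.04 at day 5 and 0.361 to 0.768 at day 10, and the part of depth was not tested in any of the 3.

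No member region passed in any comparison of the vectors. In exact conditional tests stratified by day on 8 against 8 libraries, 0 of 23 member regions passed for Tet2-WT against the empty vector, 0 of 28 for Tet2-E against Tet2-WT and 0 of 24 for Tet2-E against the empty vector. The genome gave 0.00% in each of the 3 comparisons, of 74168, 73329 and 71000 regions. In these exact conditional tests 8 against 8 libraries can give no p below 0.000408, the smallest seen for Tet2-WT against the empty vector. After adjustment over so many regions a lone region could not pass at that p, so the counts of 0 do not show that no region differed. At an unadjusted p under 0.05 there were 0 member regions in each comparison, and 525, 404 and 340 regions in the genome. The smallest p of a member was 0.0714 (exact, adjusted p = 1) at chr4:55536746-55536977, about 8 kb downstream of the Klf4 start. It was called in 4 of 8 Tet2-WT libraries, 3 at day 5 and 1 at day 10, and in 0 of 8 with the empty vector and 0 of 8 with Tet2-E. The Myc region at 58 kb came next, with 4 of 8 Tet2-WT and 0 of 8 empty vector libraries (p = 0.0918, exact, adjusted p = 1). The upstream Pou5f1 region was called in 8 of 8 libraries with each vector. With calls alone, a p that misses the threshold does not show that the vectors act alike.

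The base pairs under peaks were summed over each window. The Pou5f1 window had 448 ± 20.5 bp under peaks in the 4 MEF libraries (mean ± SD), with 784 ± 80.2 in the 12 of day 5 and 753 ± 157 in the 12 of day 10. MEF libraries reached at most 475 bp and the others had at least 520 bp, so the groups did not overlap. The order was the opposite in the Myc window, with 2060.5 ± 560 bp in MEFs, 743 ± 123 at day 5 and 581 ± 261 at day 10, and no later library reached the lowest MEF library at 1321 bp. In the Klf4 window the means were 1531 ± 437, 1047 ± 233 and 702 ± 287 bp and the groups overlapped. The Sox2 window, with 565 ± 306, 428 ± 225 and 346 ± 169 bp, overlapped throughout. These sums move with the peak number and width of each list: over the genome the lists covered 10.6 to 18.5 Mb in MEFs, 8.91 to 12.8 Mb at day 5 and 4.81 to 10.1 Mb at day 10. No test was made on these totals, and the part of list length in them was not tested.

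**Figure D4:**
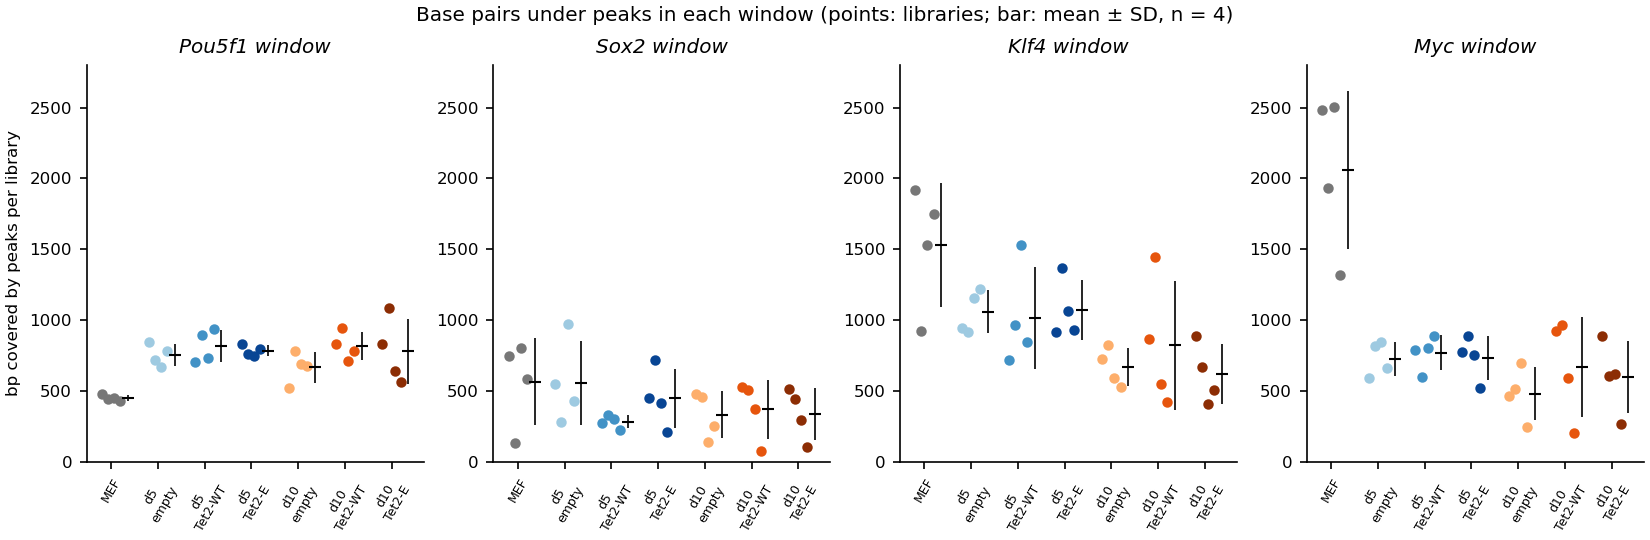
Base pairs under peaks in each window (y axis) by group (x axis); points are libraries and the bar is mean ± SD (n = 4). The 4 MEF libraries lie below all others at Pou5f1 (475 bp or less) and above all others at Myc (1321 bp or more).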

How the data were processed

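Open chromatin was measured in 28 ATAC-seq libraries (7 groups of 4), grouped by the labels. Per the submitters' processing notes the authors used Bowtie2, SAMtools, bedtools and MACS2 with build mm9; tool versions and settings, not given in the sources used here, include whether cut sites were shifted, and a shift would move peak edges by a few bases. Peaks were called per library, not on pooled samples. The deposited fold is a ratio of summit pileup to local background, each plus 1. The authors' -log10 p and -log10 q stand beside it (lowest q in each list about 0.01), with a deposited score and the summit position. Fold and p together gave whole-number pileups for 100% of peaks (tolerance 0.0002 in -log10 p), and from them the background that stands for depth; read totals were not used here.

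Peaks on 20 chromosomes were merged (overlap of 1 bp) and regions called in 2 or more libraries kept. Tests were 2-sided: Fisher's exact test for MEFs against a day, and exact conditional tests stratified by vector or by day otherwise, adjusted by the Benjamini-Hochberg method over all regions tested, with a threshold of 0.05. The tests were checked on simulated data. Alternatives were an overlap of 50%, regions in 4 or more libraries, -log10 q of 5 or more, lists cut to 27809 peaks, leaving out replicates and a replicate block; leaving out single libraries and testing only regions in 8 or more libraries were added after seeing the data. No pair of lists had equal length. Replicate numbers paired no samples.

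Named regions were those past the threshold, those called in 28 libraries, the 3 called by most libraries in each window and the one nearest each gene start. Members, lists and rules were chosen with earlier results of these data known. Gene starts in mm9 were entered to the nearest kb from general knowledge, not from the files; the neighbouring genes are those of RefSeq (GRCm38.p6), which also gave promoters for 3 of the 4 genes. Python 3.11.15, pandas 2.3.3, NumPy 2.4.6, SciPy 1.17.1 and matplotlib 3.10.9 were used.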

Additional observations from a re-analysis of the deposited data

How the results depend on the processing

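For the 20 named regions, 1708 of 1791 values kept their side of the threshold over the alternatives run, 76 lost the call and 7 gained it. The 1791 include values that had not passed in the main run, those of the vector comparisons among them, and these had no call to lose. The 1708 therefore do not measure how firm the passing calls were. Without replicate 1, for example, 6 regions that had passed at day 10 lost the call and 3 kept it. Direction was checked only for values that passed in the main run, and 0 of these reversed. Of the 4 windows, 8 regions passed for MEFs against day 5 and 9 for day 10. These became 7 and 6 when peaks had to cover 50% of a region, 5 and 6 for regions called in 4 or more libraries, 6 and 6 with -log10 q of 5 or more, and 5 and 4 with lists of equal length. Under 50% cover none of these was a gain (0 more often against 7 and 6 less often), where the main counts were 2 and 1 gains. Some regions that had passed could not be tested under an alternative, because fewer than 2 of the compared libraries still called them, or fewer than the 4 required. Under 50% cover these were the Sox2 region at 108 kb and the Klf4 region 47 kb upstream. With -log10 q of 5 or more it was the Klf4 region 43 kb downstream. With equal lists they were the Klf4 regions 43 kb downstream, 47 kb upstream and 2 kb into the gene. When 4 libraries were required they were the 3 Klf4 regions called in 3 MEF libraries. Leaving out a replicate number gave 4 to 6 and 3 to 6, a single MEF library 4 to 6 and 5 to 7, and a single day 5 or day 10 library 8 to 10 and 9 (over the genome, up to 26691 and 25904).

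Over the genome the counts were 25701, 25176 and, for day 5 against day 10, 955. With lists of equal length they were 15137, 14859 and 256, and without a replicate number 13747 to 16217, 14338 to 17956 and 0. Without MEF replicate 1 the day 10 count was 16315. The day 5 against day 10 count was 1502 under 50% cover, 1532 for regions in 4 or more libraries, 2185 for regions in 8 or more, and 1263 to 1948 without a single library. Gains against losses were 9721 and 15980 at day 5 and 5053 and 20123 at day 10; under 50% cover they were 3864 and 15689, and 788 and 18642. Between the days they were 120 and 835, and 132 and 124 with equal lists, so the excess of losses was not kept there. For regions in 4 or more libraries they were 9721 and 10601 at day 5. The cause was not tested, except that leaving out libraries or regions leaves fewer to test.

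The replicate numbers did not pair the samples: over 15 pairs of groups, correlations of the deviations of same-numbered libraries ran from -0.0185 to 0.0902, and in 0 pairs did all exceed 0.1. In 1 pair of groups, Tet2-WT and Tet2-E at day 10, every library correlated best with its own number. With the replicate block 4 and 5 regions of the windows passed, and 16517, 15749 and 0 over the genome. The comparisons of vectors gave 0 regions under every alternative run, in tests where a lone region could not pass. Depth limits all calls: a peak below 5 to 7 fragments at the background was not listed.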

Other observations

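The 18 regions called in 2 or more libraries that are not among the named ones spread over all 4 windows, with 3 at Pou5f1, 4 at Sox2, 4 at Klf4 and 7 at Myc. Those called most often were the Klf4 region 32 kb upstream, in 11 libraries, and the Pou5f1 region inside the gene, in 10. None of the 18 passed in any of the 6 comparisons. The 20 regions called in a single library numbered 2 at Pou5f1, 9 at Sox2, 3 at Klf4 and 6 at Myc.

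Named regions also differed in how common their pattern of calls over the 7 groups was in the genome. The Sox2 region 108 kb downstream shared its exact counts with 18 regions, itself included, the Myc region 14 kb downstream with 62 and the Klf4 region 17 kb downstream with 432. For the Klf4 region 55 kb and the Myc region 58 kb downstream the number was 1, the region itself.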
